A study of Mus musculus with 9 samples.

Results

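Among the 14236 circRNA probes of a mouse liver microarray, 78 separated the ischemic postconditioning (IPO) group from the normal (N) group. These 78 probes were selected on measured values. A probe was chosen when its 3 IPO values all lay above, or all below, its 3 N values, when the group means differed by at least 1 on the log2 scale (2-fold), and when the brighter group was flagged by the scanner software as well above background on all 3 arrays. On this rule 62 probes (0.436% of all circRNA probes) were higher in IPO and 16 (0.112%) were lower. These counts depended on the processing and on single arrays: they were 7 and 3 after normexp background correction and 211 and 281 without N 3. For these probes the difference between IPO and N is therefore a description of how they were chosen, and no test of it is used as support. A limma test of IPO against N over all probes bright enough to test, given below, called 0 after adjustment. What the rule left free was the I/R group, and the position of its 3 arrays is the comparison made here.

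All arrays held liver RNA of male C57BL/6 mice aged 8 weeks. The abdomen of the N mice was opened and their liver vessels were left alone. Those of the I/R group had 1 h of partial liver ischemia and then 4 h of reperfusion. Postconditioning of the IPO group came between ischemia and lasting reperfusion, with flow stopped and released 3 times for 5 s each way. For this group the labels restate no ischemia or reperfusion time. Liver samples from 3 mice of each group were picked at random, RNase R was used to digest linear RNA, and the remaining RNA was copied by random priming into Cy3-labelled cRNA, so that each of the 9 arrays gives 1 colour. Values below are log2 signals after quantile normalization of the 9 arrays, and replicates are written N 1, I/R 1, IPO 1 and so on.

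CircRNAs are rings of RNA, most of them made from exons of protein-coding genes whose ends the spliceosome has ligated to each other. Exonucleases such as RNase R need an open end to start from, which is why digestion with this enzyme enriches rings before labelling. Some circRNAs carry binding sites for miRNAs. Postconditioning restores blood flow in short bursts after an ischemic period and is known to lessen reperfusion injury, which in the liver involves Kupffer cells, the resident macrophages, and neutrophils that enter from the blood. The circRNA probes carry numbers (ASCRP) in the files used here, without the circRNA name, host gene or sequence, so members are given by number, and liver marker genes could not be read from them. In whole tissue, fewer cells of a type and less RNA per cell cannot be told apart.

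The arrays were not equally sensitive. The flag for a signal well above background was carried by 12097 to 12661 circRNA probes on each N array and by 12256 to 12504 on each IPO array. I/R 3 had 13207 such probes, I/R 1 had 8088 and I/R 2 had 5489. A log2 signal below 4.22 on I/R 1, or below 5.27 on I/R 2, was never flagged so, whereas on the remaining arrays this limit lay between 1.30 and 2.39. I/R 1, I/R 2 and IPO 3 were each alone in a scan, and the other 6 arrays shared scan 1. The file headers place all 3 N arrays in row 1 of a slide and all I/R and IPO arrays in row 2, so slide row and the N group cannot be told apart.

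In the members higher in IPO the mean log2 signal over N and IPO ran from 1.76 to 10.36, beside 1.42 to 17.83 over all probes tested. Their difference of group means ran from 1.01 to 3.48 with a median of 1.25, beside a median of -0.01 over the 12803 of 12813 tested probes with no missing N or IPO value. A probe was tested if at least 3 of its 9 values were flagged as well above background. Only 2 of the 62 differed by at least 2 and 11 by at least 1.5. The gap between the lowest of the IPO values and the highest of the N values had a median of 0.43 and exceeded 1 in 3 members, and in 19 members it was larger than both groups' SDs. By mean signal over N and IPO, 25 of the 62 lay in the lowest quartile of the tested probes, 11 in the second, 10 in the third and 16 in the highest. Among the N arrays, N 3 was the one nearest to IPO in 41 of the 62. Across all tested probes limma called 0 (0%) between IPO and N at an adjusted p below 0.05, and 111 (0.866%) passed at an unadjusted p below 0.05. An unmoderated test called 0 after adjustment and 640 of 12802 (5%) without it, the share that this threshold passes when nothing differs.

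The largest difference belonged to ASCRP4002097, whose N values were 2.27, 3.91 and 3.00 and whose IPO values were 5.93, 8.28 and 5.40. The IPO mean exceeded the N mean by 3.48 (11.1-fold), with SDs of 0.82 in N and 1.53 in IPO (n = 3 each), and by 1.31 after normexp background correction. Its I/R values of 4.17, 4.54 and 5.20 lay between the other groups without touching either, although just 1 of them was bright enough to carry that flag. This probe is in the outermost row of spots on the array, a position taken up further on.

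ASCRP4001349, ASCRP4010150 and ASCRP4012096 followed with differences of 2.58, 1.81 and 1.73, but none of their N values was well above background. For such probes the N level has only an upper bound, set per array by the higher of the probe's own value and the dimmest signal well above background. On that basis ASCRP4001349 was at least 2.18-fold higher in IPO, ASCRP4010150 at least 2.22-fold and ASCRP4012096 at least 1.505-fold. These bounds hold for the processed signal. The differences of the same 3 probes were 0.49, 0.44 and 0.31 on the log2 scale from the raw signal, and 0.25, 0.20 and 0.16 after normexp background correction. In ASCRP4001349 the N values were 0.22, 0.29 and 1.22, the IPO values 2.34, 3.39 and 3.73, and the I/R values 3.47, 3.78 and 1.64. The first 2 of these lay within or above the IPO range and the last lay nearer to N, on I/R 3, the only I/R array with a measured value. Of the 62 members, 6 had all 3 N arrays dim.

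Further members with large differences had measured N levels. ASCRP4003673 read 6.95, 7.22 and 8.17 in N and 9.55, 8.64 and 9.05 in IPO, a difference of 1.64 (3.11-fold). Its I/R values of 5.75, 6.40 and 6.71 were below all 6 others. ASCRP4007558 read 4.54, 5.17 and 4.38 in N against 7.00, 5.60 and 6.25 in IPO, and its I/R values of 4.85, 4.45 and 5.01 stayed within the N range. The I/R 2 value was not well above background, and the limit of 5.27 on that array lies above every N value. Its place is therefore not measured. In ASCRP4012555 the N values were close together at 4.91, 4.88 and 4.74, while IPO spread from 5.27 to 7.46 and I/R from 0.25 to 5.58. Of its I/R values only the 5.58 on I/R 3 was well above background, so the lower end of that spread is not measured.

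For the position of I/R, each member's I/R mean was set against the midpoint of its N and IPO means. In 40 of the 62 members higher in IPO (64.5%) the I/R mean lay on the N side, that is below the midpoint, as it did in 49.5% of all tested probes. I/R was below both group means in 26 members, between them in 27 and above both in 9, beside 43.8% below both and 44.5% above both over all tested probes. The median of the I/R mean minus the midpoint was -0.35, against 0.01 over all tested probes. Taken singly, I/R 1 was on the N side in 41 members (66.1%), I/R 2 in 35 (56.5%) and I/R 3 in 41 (66.1%). The shares of all tested probes below the midpoint were 48.4%, 49.8% and 48.1% in the same order. In 13 members all 3 I/R values lay below all 6 N and IPO values, which 10.3% of tested probes showed, and in 1 member all 3 lay above, which 10.5% showed.

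Signal level and position went together. On the N side were 10 of the 25 members in the lowest quartile of signal, 6 of 11 in the second, 10 of 10 in the third and 14 of 16 in the highest, while the share of all tested probes below the midpoint was 42.3%, 49.8%, 50.4% and 55.6% in the same order. Among the 14 members well above background on all 9 arrays, 11 were on the N side and 9 below both means. The same filter left 37.2% of tested probes below the midpoint. On I/R 1 and I/R 2 together, 83 of the 124 values of the 62 members were not well above background, and in 4 members no I/R array was, so that their I/R level is not measured. Without those 4 members 36 of 58 were on the N side. On I/R 3 alone, 37 of the 58 members measured there were on the N side (63.8%), beside 48.1% of all tested probes, measured there or not.

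The I/R mean was then tested against the mean of N and IPO with limma over all 12813 probes, a contrast in which the difference between IPO and N cancels. Of the 62 members, 16 were called lower in I/R at an adjusted p below 0.05 (25.8%, beside 8.45% of all tested probes) and 3 were called higher (4.84%, beside 6.28%). Without I/R 3 the members called lower were 20 (32.3%) beside 21.2% of all tested probes, and those called higher 7 (11.3%) beside 21.3%. With any other single array left out, 21% to 22.6% of the members were called lower, beside 4.37% to 6.76% of all tested probes. In each of the 16 called lower, the I/R mean was also below the N mean. With every I/R value that was not well above background raised to the dimmest flagged signal of its array, this upper bound of the I/R mean was still below the N mean in 15 of the 16. The exception was ASCRP4004402, named after its values were seen, where the bound of 4.12 lay between the N mean of 3.33 and the IPO mean of 4.89. The rule ties the spread within N and IPO to the difference, and that spread enters the test. The members' p-values may therefore be biased, in a direction that was not tested. The members' median SD was 0.45 in N, 0.37 in IPO and 0.69 in I/R, beside 0.26, 0.31 and 0.76 over all tested probes. The test used 1 estimate of the spread for all 3 groups, although the I/R arrays spread more than the others. Its SEs may therefore be too small for I/R, which was not tested. The p-values measure the spread between these arrays, and 3 arrays per group limit their precision. Each of the 3 I/R arrays came from a different scan, so their spread between livers and between scans cannot be told apart.

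ASCRP4007770 had the smallest adjusted p of the members. It read 6.69, 6.95 and 5.65 in N, 8.02, 8.17 and 7.88 in IPO, and 1.39, 2.55 and 1.63 in I/R, so that the groups did not overlap and I/R was the lowest. I/R minus the mean of N and IPO was -5.37 (SE 0.37, adjusted p = 0.000276 in limma). ASCRP4014128 read lowest in I/R as well, with N at 6.05, 6.01 and 4.66, IPO at 6.85, 6.89 and 6.77 and I/R at 1.84, 1.08 and 2.33, and its contrast was -4.46 (SE 0.39, adjusted p = 0.000698). For both probes just 1 of the 3 I/R values was flagged as measured, and the other I/R values give a bound and no size. In ASCRP4007770 the limits of 4.22 and 5.27 lie below every N value, whereas in ASCRP4014128 the limit of I/R 2 lies above the N 3 value of 4.66, so that I/R 2 and N 3 have no measured order there. Both contrasts passed the threshold in all 24 other settings, with adjusted p-values from 0.000161 to 0.00677 for ASCRP4007770 and from 0.00022 to 0.0118 for ASCRP4014128. The size did not hold in the same way, since the contrasts were -2.79 and -1.79 from the raw signal and -1.79 and -1.18 after normexp background correction.

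For 6 of the called members there was no such limit, since all 9 of their values were well above background. ASCRP4008297, the brightest member, read 9.74, 10.21 and 8.97 in N, 10.90, 11.08 and 11.24 in IPO and 7.62, 7.41 and 5.64 in I/R. IPO was 1.43 above N (2.70-fold) and I/R was 3.47 below their mean on the log2 scale (contrast -3.47, SE 0.46, adjusted p = 0.0026 in limma). The order IPO, N, I/R held for every value. ASCRP4012616 read 8.35, 8.74 and 8.47 in N, 9.96, 10.45 and 9.30 in IPO and 6.06, 6.52 and 6.46 in I/R, again with no overlap, and its contrast was -2.86 (SE 0.31, adjusted p = 0.00131). ASCRP4011492 read 9.66, 9.79 and 9.82 in N, 11.14, 10.89 and 10.64 in IPO and 8.37, 8.58 and 9.43 in I/R, a narrower but complete separation (contrast -1.53, SE 0.30, adjusted p = 0.0119). ASCRP4003673, given above, had a contrast of -1.98 (adjusted p = 0.01).

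The 2 remaining such members are named here after their values were seen. In ASCRP4010363 the N values were 8.06, 8.08 and 8.69, the IPO values 8.83, 9.38 and 10.01 and the I/R values 6.34, 6.43 and 6.20 (contrast -2.52, adjusted p = 0.00208 in limma). In ASCRP4001089 the N values were 8.26, 7.82 and 7.77, the IPO values 8.90, 9.20 and 9.09 and the I/R values 7.55, 7.06 and 6.16 (contrast -1.58, adjusted p = 0.0154). All 3 I/R arrays were below all 3 N arrays in both. Of the other 10 members called lower, 7 were well above background on 1 I/R array and 3 on 2.

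The 3 members called higher in I/R had low signals, with N means under 4. ASCRP4010150 read 4.66, 3.55 and 4.04 in I/R, against 0.93, 1.37 and 2.19 in N and 3.95, 2.79 and 3.19 in IPO, and its contrast was 1.68 (SE 0.40, adjusted p = 0.0238 in limma). I/R overlapped IPO there, and 2 of the I/R arrays were well above background. ASCRP4005460 was well above background on all 9 arrays and read 3.74, 3.12 and 3.33 in N, 4.70, 4.33 and 4.29 in IPO and 4.63, 6.0043 and 5.9963 in I/R (contrast 1.63, SE 0.36, adjusted p = 0.0186). ASCRP4007377, named after its values were seen, read 1.36, 1.91 and 2.62 in N, 3.15, 3.30 and 2.75 in IPO and 3.55, 3.78 and 4.56 in I/R (contrast 1.45, adjusted p = 0.0266). Its values on I/R 1 and I/R 2 and on 2 of the N arrays were not well above background, so this call rests on levels that were not measured. The I/R 2 value and all 3 N values of ASCRP4010150 were not measured either. The call of ASCRP4010150 held in 14 of 23 other settings (adjusted p from 0.0164 to 0.0759) and that of ASCRP4005460 in 22 of 24 (0.00766 to 0.0703). After normexp background correction their contrasts were 0.41 and 0.58.

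Not every bright member had I/R below N. ASCRP4005432 read 8.28, 8.44 and 8.71 in N and 9.65, 8.92 and 9.94 in IPO, a difference of 1.03. Its I/R values were 9.98, 9.82 and 7.83, of which I/R 1 and I/R 2 reached the IPO level and I/R 3 lay below every N value. The contrast was 0.22 (SE 0.48, adjusted p = 0.786 in limma).

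The 16 members lower in IPO differed from N by -2.44 to -1.01, with a median of -1.24, and 2 of them by at least 1.5. The gap between the groups had a median of 0.29 and reached 0.5 in 3 members. By signal, 8 of the 16 lay in the lowest quartile of tested probes, 2 in the third and 6 in the highest. N 3 was again the N array nearest to IPO in most of them, namely 10. On the arrays of scan 1 alone, which leaves out IPO 3, 10 of these 16 and 44 of the 62 higher members still differed by at least 1 with the values normalized over all 9 arrays. With scan 1 normalized by itself, 11 of the 16 and 51 of the 62 met the whole rule.

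ASCRP4007684 was the member with the largest difference and also among the brightest. It read 10.21, 10.35 and 10.95 in N and 9.46, 4.81 and 9.92 in IPO, a difference of -2.44 with an IPO SD of 2.82, and without IPO 2 the difference was -0.81. In I/R the values were 11.67, 11.45 and 5.09, so that I/R 3 was close to IPO 2 while I/R 1 and I/R 2 exceeded N.

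ASCRP4001745 and ASCRP4001667, with differences of -1.99 and -1.45, had no IPO array well above background. IPO was at least 1.54-fold lower in ASCRP4001745 and at least 1.235-fold lower in ASCRP4001667. These bounds, too, hold for the processed signal. The log2 differences of the 2 probes were -0.48 and -0.22 from the raw signal, and -0.23 and -0.12 after normexp background correction. ASCRP4004304 was also dim on all IPO arrays and was at least 1.196-fold lower in the processed signal. Its difference was -0.19 from the raw signal and -0.08 after normexp background correction. In all, 4 of the 16 members were dim on all IPO arrays.

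Of the brighter members of this direction, ASCRP4011090 read 10.15, 9.59 and 9.88 in N, 8.94, 8.41 and 8.47 in IPO and 11.01, 10.58 and 8.45 in I/R. IPO was 1.27 below N on the log2 scale, I/R 1 and I/R 2 lay above every N value and I/R 3 lay within the IPO range. ASCRP4014114 showed the same split, with N at 8.15, 7.98 and 6.90, IPO at 5.70, 6.88 and 6.66 and I/R at 8.64, 8.26 and 6.49. ASCRP4006192 read 6.96, 7.31 and 8.48 in N, 6.12, 6.75 and 5.67 in IPO and 7.74, 7.85 and 7.05 in I/R, where all 3 I/R values fell in the N range. ASCRP4004748 read 6.75, 7.74 and 6.54 in N, 6.26, 5.81 and 5.89 in IPO and 7.75, 7.93 and 7.06 in I/R, so that all 3 I/R values were above all IPO values. ASCRP4005981, a dimmer member, read 3.85, 3.79 and 3.19 in N, 3.04, 2.35 and 1.62 in IPO and 2.72, 6.68 and 3.71 in I/R.

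In 14 of these 16 members (87.5%) the I/R mean lay on the N side, here above the midpoint, beside 50.5% of all tested probes. It was above both means in 7, between them in 8 and below both in 1. Among the 7 members well above background on all 9 arrays, 7 were on the N side, beside 62.8% of tested probes under that filter. The single arrays did not share this equally. The N side held 13 members by I/R 1 (81.25%), 14 by I/R 2 (87.5%) and 8 by I/R 3 (50%). Over all tested probes the shares above the midpoint were 51.6%, 50.2% and 51.8%, so I/R 3 was near that share. Among the 7 brightly measured members I/R 3 was on the N side in 3. With I/R 1 and I/R 2 left out together the count was 8 of 16, and within scan 1, where I/R 3 is the only I/R array, it was 9. The count of 14 therefore rests on I/R 1 and I/R 2, where 16 of the 32 values of these members were not well above background. For the members higher in IPO the counts were 41 of 62 both within scan 1 and with I/R 1 and I/R 2 left out.

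None of the 16 was called against the mean of N and IPO by limma at an adjusted p below 0.05, and at an unadjusted p below 0.05 there was 1 higher (6.25%) and 1 lower (6.25%) in I/R. Over all tested probes the adjusted shares given above were 6.28% higher and 8.45% lower, and at an unadjusted p below 0.05 they were 15.7% higher and 16.4% lower. Without I/R 3, 5 of the 16 were called higher (31.2%) and 1 lower (6.25%), beside 21.3% and 21.2% of all tested probes. The unmoderated test called 0 of the 16 in either direction, beside 5.72% of all tested probes higher and 5.14% lower. The smallest adjusted p belonged to ASCRP4004111, which read 8.91, 9.89 and 8.75 in N, 8.35, 8.27 and 7.20 in IPO and 6.93, 5.26 and 8.03 in I/R, with a contrast of -1.82 (SE 0.57, adjusted p = 0.0587). It was the only member of this direction with I/R below both means. ASCRP4004748 came next with a contrast of 1.08 (SE 0.34, adjusted p = 0.0623). The first passed the threshold in 2 of 24 other settings (adjusted p from 0.00616 to 0.445), one of them without I/R 3, and the second in 5 of 25 (0.0127 to 0.411). ASCRP4004304 and ASCRP4002969, also named by rule, had contrasts of 0.78 (adjusted p = 0.192) and -0.10 (adjusted p = 0.882).

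The members were not spread evenly over the array, which has 192 rows of spots. Rows 1 to 3 held 18 of the 62 members higher in IPO (29%) and 210 of the 14236 circRNA probes (1.48%). By row there were 8, 5 and 5. All circRNA probes of those rows had a median IPO minus N of 0.26, against -0.0132 in the rows other than the outermost 3 at each end. The 3 rows at the opposite end held 3 of the 16 members lower in IPO (18.8%) and none of those higher, with 212 of all circRNA probes (1.49%), and all probes there had a median of -0.106. In rows 1 to 3 the median deviation from the mean of N and IPO was -0.185, -0.304 and 0.0637 on N 1, N 2 and N 3, and 0.218, 0.0136 and 0.195 on IPO 1, IPO 2 and IPO 3. Its part in the members' differences was not tested.

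Several of the members named above lie in these rows. ASCRP4002097 is in row 1, ASCRP4010150, ASCRP4012616 and ASCRP4005460 are in row 2, ASCRP4003673, ASCRP4012555 and ASCRP4011492 are in row 3, and ASCRP4006192 is in row 192. ASCRP4008297 is in row 119, ASCRP4007770 in row 38, ASCRP4014128 in row 131, ASCRP4010363 in row 51 and ASCRP4001089 in row 161. Of the 11 members higher by at least 1.5, 5 were outside the outer 3 rows. With the outer 3 rows at both ends left out, 44 members higher in IPO and 12 lower remained. Of those 44, 30 had I/R on the N side, 20 below both means and 5 above both. Called lower in I/R were 12 (27.3%, beside 8.57% of all tested probes), and 1 was called higher (2.27%, beside 6.37%). Of the 12 members lower in IPO that remained, 10 had I/R on the N side and none was called in I/R. When the median deviation of each spot row was subtracted on each array and the rule was applied again, 50 probes were higher in IPO, 47 of them among the 62, and 16 were lower, 13 of them among the 16.

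The local background intensity of the members had medians between 15 and 17 on each N and IPO array for the 62 and between 15 and 17 for the 16, beside 16 to 17 over all tested probes. On the first, the second and the third I/R array the medians for the 62 members were 25, 32.5 and 16.75, for the 16 members 26.5, 32.5 and 16.5, and for all tested probes 27, 33.5 and 17. The part of this higher background on I/R 1 and I/R 2 in the position of I/R was not tested.

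At the limit of the rule, the members with the smallest differences were ASCRP4011788 and ASCRP4002693 in the higher direction, both at 1.01, and ASCRP4008273 at -1.01 and ASCRP4004748 at -1.03 in the lower. Just outside were ASCRP4006670 and ASCRP4001496, whose IPO mean exceeded the N mean by 0.996 and 0.995, and ASCRP4000664 and ASCRP4010742, at -0.978 and -0.969. Altogether 578 probes had IPO wholly above N, with IPO well above background, but a difference under 1. Another 614 had IPO wholly below N, with N well above background, and a difference smaller than 1 in size. A difference of at least 1 was met by 107 probes in the higher direction and 65 in the lower. Of those, 23 and 36 were bright enough but overlapped, and 17 and 8 did not overlap but were too dim. No overlap of the 3 and 3 values, whatever the difference, was found for 5.13% of tested probes in the higher direction and 5.05% in the lower. Values in random order over the N and IPO arrays would separate at about these shares.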

How the data were processed

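CircRNA expression was measured in mouse liver on 9 one-colour (Cy3) arrays, 3 per group, with groups and replicate numbers taken from the labels. The authors deposited what Agilent Feature Extraction wrote for each array (release 11.0.1.1 in the submitters' processing notes). It gives per spot a processed intensity after background correction, median raw and local background intensities, and, per the file headers, yes-or-no flags and other columns for outlier, saturated and dim spots. Processed intensities were taken to log2, outlier spots became missing values, and 15176 non-control spots were quantile normalized, as the methods state, in R 4.3.3 with limma 3.58.1. No member had a missing value. The I/R mean was tested against the mean of N and IPO with lmFit and eBayes over the 12813 circRNA probes with at least 3 values flagged as well above background, with Benjamini-Hochberg adjustment over all of them at 0.05. The members and the lists were chosen with earlier results of these data known. Named by rule, per direction, were the 8 largest differences, the 4 highest mean signals, the smallest adjusted p-values (2 with I/R higher, 2 lower) and the probes nearest the limit of 1. Replicate numbers did not pair the arrays: deviations of same-numbered arrays correlated between -0.47 and 0.18 in 9 pairs, 2 of them over 0.1. Alternatives were other scalings and background corrections, other filters and tests, scan or replicate as a block, and each array left out. Those on spot rows and on I/R 1 and I/R 2 together were chosen after seeing the data. The rule and the contrast were tested on simulated arrays, and no result given here rests on that.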

Additional observations from a re-analysis of the deposited data

How the results depend on the processing

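The number of members depended on how the background was handled and on single arrays. The rule, applied again, gave 62 probes higher and 16 lower in IPO in the reported setting. It gave 7 and 3 after normexp background correction with an offset of 50 and 17 and 5 from the raw signal. The first adds an offset and the second keeps the background, and the part of this in the smaller counts was not tested. A difference of at least 1.5 left 11 and 2, and asking for bright spots on all 9 arrays left 14 and 7. Scaling by the 75th percentile gave 30 lower and scan 1 alone 39. Leaving out 1 array gave 58 to 211 higher and 16 to 281 lower. The highest counts came without N 3, and counts also passed 1.5 times the reported ones without IPO 1 (132 and 76) and IPO 2 (133 and 32), and for the lower direction without N 1 (27), N 2 (25) and IPO 3 (31). With 2 arrays in a group, no overlap is asked of fewer values, and the part of this in the counts was not tested. The counts differed with the array left out, as 58 were higher without N 2 and 79 without N 1.

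The I/R mean stayed on the N side in 37 to 44 of the 62 members higher in IPO over the settings that kept all of them, and in 30 of the 44 outside the outer 3 spot rows. For the 16 lower in IPO the count of 14 became 9 within scan 1 and 8 without I/R 1 and I/R 2, 12 to 14 with 1 array left out, and 10 of 12 outside the outer 3 spot rows.

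Of the 62, 13 to 20 were called lower in I/R with 1 array left out, while the share of all tested probes called lower ran from 4.37% (without N 1) to 21.2% (without I/R 3). With the filter on all 9 arrays 7 of 14 were called lower, beside 7.93%. The 3 called higher became 1 with that filter, under Student's t-test and without the outer 3 spot rows, beside 13.8%, 5.72% and 6.37% of all tested probes. The count was 7 with scan as a block, 6 with array weights, and 1 to 7 with 1 array left out (7 without I/R 3, 1 without N 1, N 2, I/R 2, IPO 2 or IPO 3). With the replicate number as a block, 13 of the 62 were called lower (21%, beside 4.77% of all tested probes) and 1 higher (1.61%, beside 2.22%). None of the 16 was called with that block. Of those 16, the number called higher in I/R was 2 with 75th percentile scaling (beside 6.75% of all tested probes) and 1 with the raw signal (6.84%). It was 1 with the filter on all 9 arrays, 2 with scan as a block, 4 with array weights, and 0 to 5 with 1 array left out (5 without I/R 3). With 1 array left out, the share of all tested probes called higher ran from 2.3% (without IPO 2) to 21.3% (without I/R 3). It was 14.6% with scan as a block and 12% with array weights. The number called lower was 1 with array weights and 0 to 1 with 1 array left out. The cause of these shifts was not tested. Array weights gave I/R 3 the lowest weight, 0.115. Differences between IPO and N of the 28 named members kept their sign in all 16 settings run, but in 14 of them the size moved by more than the larger SD of N and IPO, mostly after normexp correction or from the raw signal. Under normexp ASCRP4002097 went from 3.48 to 1.31, ASCRP4001349 from 2.58 to 0.25 and ASCRP4004304 from -1.10 to -0.08, while ASCRP4008297 went from 1.43 to 1.34 and ASCRP4011090 from -1.27 to -1.08. ASCRP4007684 went from -2.44 to -0.81 without IPO 2. Dim signal on I/R 1 and I/R 2 limits every statement on I/R for members under 4.22 and 5.27.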
